A study of Mus musculus with 12 samples.

Results

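Integrins are cell surface receptors made of an alpha and a beta chain that bind matrix proteins outside the cell and link them to the actin cytoskeleton and to signalling kinases inside it. Laminins are cross-shaped trimers of an alpha, a beta and a gamma chain that form the sheet-like basement membrane around each cardiomyocyte and each vessel. In heart muscle the main laminin receptor is the integrin alpha7 beta1 pair, which works beside the dystrophin glycoprotein complex, while fibroblasts, endothelial cells and leukocytes use other pairs to hold collagen, fibronectin and other cells. The genes of these chains were taken as the protein-coding rows of the gene count table whose symbols start with Itga, Itgb, Lama, Lamb or Lamc, leaving out Itgb1bp, Itgb3bp, Itgbl and Lamt names. This gave 38 of 56748 rows: 18 integrin alpha, 9 integrin beta, 5 laminin alpha, 3 laminin beta and 3 laminin gamma genes. Of them 36 passed the filter on low counts and were tested, while Lama1 and Itgb2l, with 64 counts and 1 count over all 12 libraries, were not.

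RNA of the left ventricle of wild type C57BL/6J mice was sequenced 14 days after surgery in 3 groups of 4 libraries. In every group the tail vein was injected with AAV9, an adeno-associated virus. Irx3 MI mice received AAV9 carrying Irx3, an Iroquois homeobox transcription factor, and myocardial infarction (MI) by ligation of the left anterior descending coronary artery. Control MI mice received the control vector and the same ligation, and sham mice received the control vector and sham surgery. There was no sham group with the Irx3 vector, and the labels do not name the promoter of the vector. Nothing in the labels beyond the number per group says that the libraries came from separate mice, so p-values measure the spread between these libraries.

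Libraries held 13352604 to 19236721 counts in Irx3 MI, 16081360 to 18738571 in control MI and 15966982 to 18441830 in sham. Normalised read counts are given as CPM, counts scaled to the library total with TMM factors. Irx3 itself had 285 to 513 CPM in Irx3 MI libraries, 16.8 to 30.5 CPM in control MI libraries and 20.5 to 25.9 CPM in sham libraries. Mitochondrially encoded genes took 10.4% to 19.0% of counts in Irx3 MI, 0.926% to 5.64% in control MI and 4.50% to 8.22% in sham. Although the labels name cardiomyocytes as the cell type, markers of fibroblasts, endothelium, mural cells and leukocytes were present in every group, so the libraries were read as whole ventricle. In such tissue fewer cells of a type and less RNA per cell cannot be told apart. A gene was called when its adjusted p was under 0.05 in edgeR's quasi-likelihood test over all 15742 genes tested.

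The promoters of Itgb6 and Lama5 are shown because both genes were called in both main comparisons and their sequences differ in base composition. Itgb6, the beta chain of the epithelial receptor that activates TGF-beta, had the largest fold change of the members with Irx3 vector. The window of the more upstream of its annotated starts is chr2:60722554-60722853, and that of Lama5 is chr2:180225810-180226109, both on the minus strand. Both are RefSeq windows on GRCm38.p6 that run from 250 bases before to 50 bases after the annotated start, written 5′ to 3′, with matches to the motifs searched in capitals.
Itgb6: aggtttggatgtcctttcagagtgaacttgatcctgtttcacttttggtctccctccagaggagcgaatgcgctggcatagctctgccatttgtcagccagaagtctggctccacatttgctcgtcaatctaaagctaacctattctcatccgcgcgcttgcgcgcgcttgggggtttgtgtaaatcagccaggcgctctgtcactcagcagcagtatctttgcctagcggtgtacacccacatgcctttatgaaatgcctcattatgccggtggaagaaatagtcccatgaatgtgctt
Lama5: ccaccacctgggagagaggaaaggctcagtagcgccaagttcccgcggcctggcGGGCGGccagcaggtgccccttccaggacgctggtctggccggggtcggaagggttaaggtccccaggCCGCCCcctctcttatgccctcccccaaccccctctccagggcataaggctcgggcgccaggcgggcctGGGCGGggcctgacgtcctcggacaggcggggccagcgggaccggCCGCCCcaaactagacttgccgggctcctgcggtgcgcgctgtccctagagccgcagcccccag
The capitals in Lama5 mark 4 GC boxes, GGGCGG on either strand, and G and C made up 72.7% of this window. The Itgb6 window was 50.3% G and C and held none of the 4 motifs searched. The GC box was in 12 of 27 member promoters (44.4%), against 35.7% of 32851 mouse promoters. The Iroquois-type palindrome ACANNTGT was in 3 of 27 (11.1%), against 7.38% of all promoters. The AP-1 type motif TGANTCA was also in 3 of 27, against 7.81%, and TATAAA was in 0 of 27, against 13.6%. The 27 promoters belong to the 24 of 38 members that matched the RefSeq table, both strands were searched, and a match is a description of letters only.

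Infarction under control vector was followed by higher transcripts of most integrin chains, and the laminin chains were split. Of 36 members 24 (66.7%) rose in control MI against sham, beside 26.3% of all genes tested. Another 4 (11.1%) fell, Itga7, Itgb6, Lama5 and Lamb3, beside 22.4% of all genes. In either direction 77.8% of members were called, beside 48.7% of all genes. The median log2 fold change was 0.90 over members and 0.01 over all genes tested. Of 26 integrin chains 19 rose and 2 fell, with a median of 1.49, and of 10 laminin chains 5 rose and 2 fell, with a median of 0.39. The steepest rise was of the fibroblast collagen receptor chain Itga11, at 17.8-fold. Control MI libraries all lay above sham libraries in 23 members (24.5% of all genes) and all below in 4 members (22.8% of all genes). All 28 calls were made again, in the same direction, after the correction for GC content described next.

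With Irx3 vector after infarction the members went both ways. Of 36 members 6 (16.7%) were called higher in Irx3 MI than in control MI, namely Itga1, Itga4, Itga6, Itgav, Itgb1 and Itgb6, beside 25.2% of all genes tested. Another 13 (36.1%) were called lower, beside 24.1% of all genes. They included Itga2b, Itga5, Itga9, Itga10, Itga11, Itgb3, Itgb4, Itgb5, Lama5, Lamb2, Lamb3 and Lamc1. The share called in either direction was 52.8% of members and 49.3% of all genes tested, so members were called about as often as other genes. The median log2 fold change was -0.34 over members and 0.00 over all genes. The Irx3 MI libraries all lay above the control MI libraries in 5 members (22.1% of all genes) and all below in 8 members (18.9% of all genes).

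Member fold changes with Irx3 vector ran against transcript GC content. The Spearman correlation between them was -0.69 across the 36 members, and -0.65 across 15186 genes. These are genes of the same libraries and not independent replicates. Itgb1, Itga1, Itga4, Itgav and Itgb6, with 41.1% to 44.8% G and C, were called higher, while Lama5, Lamb2, Itgb4, Itgb5, Itga5 and Itga2b, with 57.0% to 60.0%, were called lower. Not all members followed this split. Itgb8, Itga2 and Itga8, with 40.4% to 44.0%, and Itga7, Itga3, Itgb7 and Lamc3, with 57.8% to 58.4%, were not called. The other calls lay between these ranges, among them Itga6, called higher with 48.9%. In each library a smooth curve on GC content was therefore fitted to each gene's log2 CPM less its mean over the libraries. Removing the curve takes out GC-linked differences between libraries and groups, whatever their source. The test was then repeated. It then called 4 members higher and 3 lower, beside 14.3% and 13.1% of all genes. Of the 19 calls 4 were kept, with Itga6 and Itgb6 higher and Lama5 lower among them, 15 were lost, and Itga3, Itga7 and Lama2 were gained. Itga6 and Itgb6 were called in the same direction under each of the alternatives tried. Beside each call below the value from that fit is called GC-corrected.

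**Figure D1:**
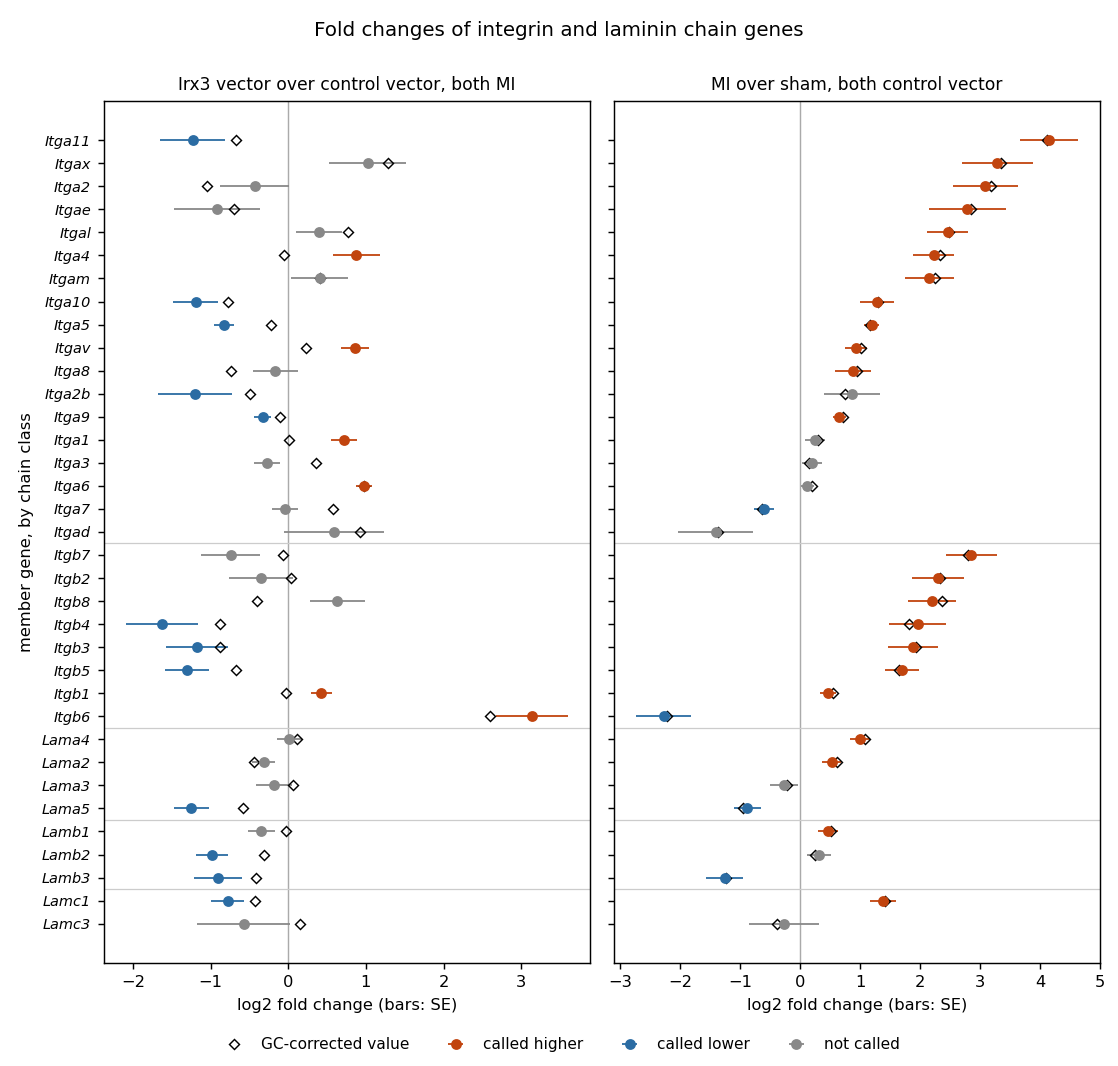
Log2 fold change (x axis, bars show the standard error) of the members shown (y axis, grouped by chain class), for Irx3 MI over control MI on the left and control MI over sham on the right, with open diamonds for GC-corrected values. On the right the diamonds lie close to the filled points, and on the left most move towards 0, with Itga6, Itgb6 and Lama5 among those still called.

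Both comparisons use the control MI libraries, so the signs of a gene in the 2 comparisons are not independent, and values of the third comparison, Irx3 MI against sham, are given where they bear on a member. There 18 of 36 members rose and 4 (11.1%) fell, beside 35.2% and 27.7% of all genes tested, or 61.1% of members and 62.9% of all genes in either direction. The Irx3 MI libraries lay above all sham libraries in 17 members (33.2% of all genes) and below in 5 (27.6% of all genes). The median log2 fold change was 0.65 over members and 0.12 over all genes. After GC correction it called 21 higher, beside 32.5% of all genes, and 2 lower, Lama5 and Lamb3, beside 21.9%. The corrected fit gained calls of Itga3, Itgb3, Itgb5 and Lamb1, all higher, and lost those of Itga1, Itga7 and Lamb2. Leaving out single libraries gave 15 to 20 higher and 4 to 5 lower, with the calls of Itga5, Itga9, Itgae and Lamc1 lost without 1 library or another. At the other end 15 of the 22 calls, Itga6, Itgav, Itgb1, Lama5 and Lamb3 among them, were made under each alternative.

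Laminin alpha chains carry the large globular end that receptors bind. Lama5 is the chain of mature vessels and of many epithelia, and it fell in both comparisons. Lama5 had 201, 330.1, 325 and 188 CPM in Irx3 MI, 766, 516, 567 and 630.3 in control MI and 921, 1331, 1259.8 and 1071 in sham. All Irx3 MI libraries lay below all control MI libraries, which lay below all sham libraries. Lama5 had a log2 fold change of -1.25 (SE 0.23, adjusted p = 0.000688) with Irx3 vector and -0.89 (SE 0.22, adjusted p = 0.0055) with infarction. The GC-corrected values were -0.58 (adjusted p = 0.0404) and -0.95 (adjusted p = 0.00142), and Lama5 was called lower in each.

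Lama2 is the alpha chain of the muscle basement membrane, the chain missing in a congenital muscular dystrophy. Lama2 had 270.4, 224, 293 and 172 CPM in Irx3 MI, 286, 294, 321 and 295 in control MI and 202, 208, 212 and 211 in sham. Every control MI library was above every sham library, and Irx3 MI libraries overlapped both. The log2 fold change with infarction was 0.52 (SE 0.15, adjusted p = 0.0124), and 0.43 (adjusted p = 0.0593) without control MI replicate 3. With Irx3 vector it stood at -0.32 (SE 0.15, adjusted p = 0.0984) and was not called, while it was called GC-corrected, at -0.44 (adjusted p = 0.0492), in DESeq2, at -0.35 (adjusted p = 0.0400), and without Irx3 MI replicate 3, at -0.42 (adjusted p = 0.0469). Lama4, the chain of capillary and fibroblast laminins, rose with infarction. Lama4 had 203, 136, 159 and 124 CPM in Irx3 MI, 129, 152, 139.9 and 194 in control MI and 79.6, 81.6, 71.6 and 75.6 in sham. The sham libraries were lowest throughout, and the infarcted groups overlapped. Its log2 fold change was 1.00 (SE 0.17, adjusted p = 0.000396) with infarction and 0.01 (SE 0.16, adjusted p = 0.949) with Irx3 vector. Lama3, an epithelial chain, had 4.79 to 6.61 CPM in Irx3 MI, 4.21 to 9.40 in control MI and 6.67 to 9.29 in sham and was called in neither, but without control MI replicate 4 it was called lower with infarction, at -0.58 (adjusted p = 0.0396). Lama1, an embryonic chain, was at or below 1.08 CPM in every library.

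Of the laminin beta chains Lamb2, found at the neuromuscular junction and in mature muscle and vessels, had the most reads. Lamb2 had 656, 853, 774 and 559.7 CPM in Irx3 MI, 1479, 987, 1423 and 1728 in control MI and 982, 1191, 1268 and 1094 in sham. The Irx3 MI libraries lay below all others. Lamb2 had a log2 fold change of -0.98 (SE 0.21, adjusted p = 0.00173) with Irx3 vector and 0.31 (SE 0.20, adjusted p = 0.227) with infarction, and GC-corrected the first became -0.32 (adjusted p = 0.152). Against sham, Irx3 MI was called lower, at -0.67, but GC-corrected it stood at -0.075 (adjusted p = 0.709) and was not called. Lamb1, the beta chain of fibroblast and embryonic laminins, had 264, 187, 204 and 188 CPM in Irx3 MI, 281, 224, 230.0 and 335 in control MI and 168, 205, 231 and 173 in sham. The 3 groups overlapped. Its rise with infarction, 0.46 (SE 0.17, adjusted p = 0.0401), was lost without any 1 of 6 libraries, the largest drop being to 0.27 (adjusted p = 0.195) without control MI replicate 4. The other 5 were control MI replicates 1 and 3 and sham replicates 1, 2 and 4, where it stood at 0.38 (adjusted p = 0.126), 0.47 (adjusted p = 0.059), 0.39 (adjusted p = 0.113), 0.49 (adjusted p = 0.0634) and 0.41 (adjusted p = 0.112). With Irx3 vector Lamb1 stood at -0.35 (SE 0.17, adjusted p = 0.111) and was called only without Irx3 MI replicate 1 among the libraries left out, at -0.47 (adjusted p = 0.0374).

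Lamb3, a beta chain of epidermal laminin, fell in both comparisons. Lamb3 had 5.68, 11.1, 6.81 and 11.3 CPM in Irx3 MI, 20.5, 23.4, 13.1 and 8.06 in control MI and 38.97, 48.4, 34.7 and 34.1 in sham. All infarcted libraries lay below all sham libraries, and the infarcted groups overlapped. Lamb3 had a log2 fold change of -1.26 (SE 0.30, adjusted p = 0.00398) with infarction and -0.90 (SE 0.31, adjusted p = 0.0264) with Irx3 vector, and GC-corrected the second became -0.42 (adjusted p = 0.363). The fall with Irx3 vector was also lost without control MI replicate 1 or 2, at -0.77 (adjusted p = 0.0741) and -0.67 (adjusted p = 0.0768), and without Irx3 MI replicate 1 or 3, at -0.74 (adjusted p = 0.0679) and -0.79 (adjusted p = 0.0704).

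The laminin gamma chains were led by Lamc1, the gamma chain shared by most laminins. Lamc1 had 690.1, 496, 639.7 and 367 CPM in Irx3 MI, 906, 743, 912 and 1200.4 in control MI and 356, 399, 372 and 321 in sham. Control MI libraries were the highest with no overlap, and Irx3 MI libraries reached into the sham range. Lamc1 had a log2 fold change of 1.38 (SE 0.21, adjusted p = 0.000251) with infarction and -0.78 (SE 0.21, adjusted p = 0.00815) with Irx3 vector, and GC-corrected the second became -0.42 (adjusted p = 0.147). Lamc3 had 0.718 to 1.73 CPM in Irx3 MI, 0.683 to 4.86 in control MI and 1.25 to 3.62 in sham and was called in neither. Without control MI replicate 4 it was called lower with infarction, at -1.48 (adjusted p = 0.0152), against -0.27 (SE 0.59, adjusted p = 0.724) over all libraries.

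**Figure D2:**
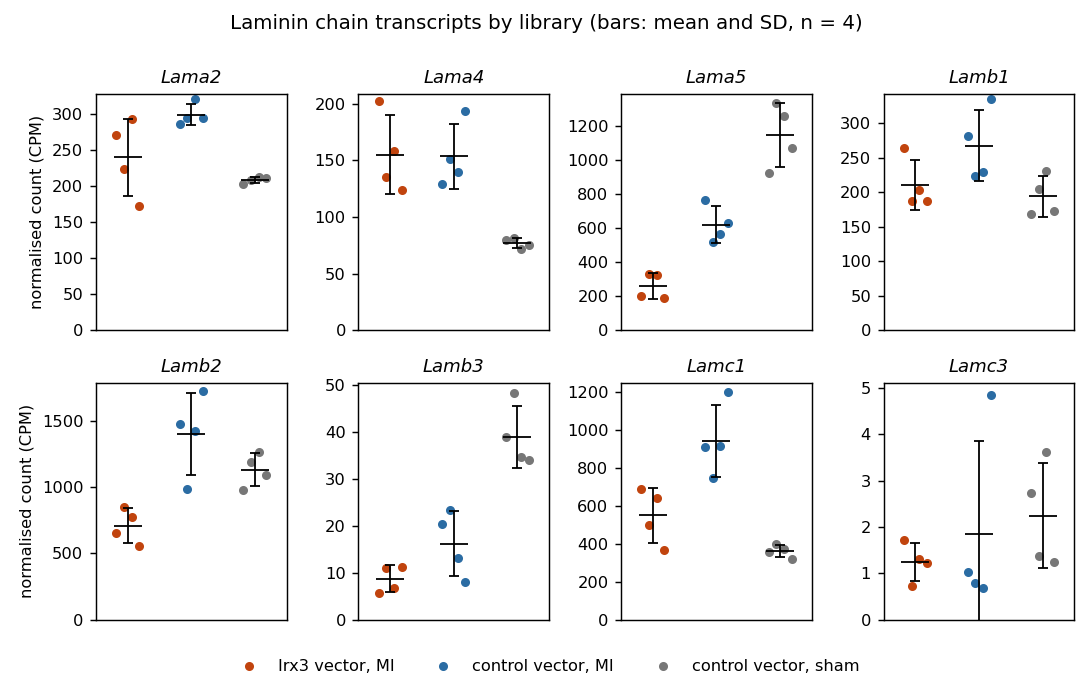
Normalised counts (y axis, CPM) of 8 laminin chain genes in each library, with Irx3 MI, control MI and sham from left to right and black bars for the mean and SD of 4 libraries. Lama5 steps down across the groups from right to left, Lamc1 is highest in control MI, and Lama4 is alike in both infarcted groups.

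Markers of vessel cells were read beside the laminin chains. The summed level of 6 endothelial markers was 911 to 1032 CPM in Irx3 MI, 1072 to 1488 CPM in control MI and 1249.8 to 1401 CPM in sham. With Irx3 vector 2 of the 6 were called higher and 4 lower, and with infarction 1 was called higher and 1 lower. Together 6 mural cell markers had 892 to 1029 CPM in Irx3 MI, 931 to 1343 CPM in control MI and 855 to 1125 CPM in sham. Of these 2 were called higher and 2 lower with infarction, and 1 higher and 2 lower with Irx3 vector. No marker of either list was at 0. Their part in the laminin results was not tested.

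When each chain's reads were divided by its exon length, the laminin alpha transcript pool differed in make-up between groups, described here with no test. Shares here and below come from counts without the GC correction. GC-corrected, Lama5 and Lama2 were both called lower with Irx3 vector, but neither was when the replicate number was added to that fit. Lama5 held 44.6% ± 7.99 of laminin alpha reads per kilobase in Irx3 MI, 62.9% ± 4.74 in control MI and 83.3% ± 2.26 in sham (mean ± SD, n = 4). Lama2 held 28.7% ± 2.92 in Irx3 MI, 21.5% ± 2.86 in control MI and 10.7% ± 1.36 in sham. Lama4 held 25.5% ± 5.41 in Irx3 MI, 14.9% ± 2.91 in control MI and 5.39% ± 0.873 in sham. Lama5 had the largest mean share in each group. Lama2 and Lama4 together outweighed it in Irx3 MI replicates 1, 3 and 4 but not in replicate 2, where Lama5 held 53.2%. In Irx3 MI replicate 1 Lama5 held 34.2% and Lama4 32.5%. Lamc1 made up 98.1% ± 0.206 of the gamma pool in Irx3 MI, 97.7% ± 0.230 in control MI and 96.1% ± 0.501 in sham. Lamb2 made up 83.5% ± 3.46 of the beta pool in Irx3 MI, 88.5% ± 1.74 in control MI and 87.97% ± 0.611 in sham. The pools of both were led by 1 chain in every library.

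**Figure D3:**
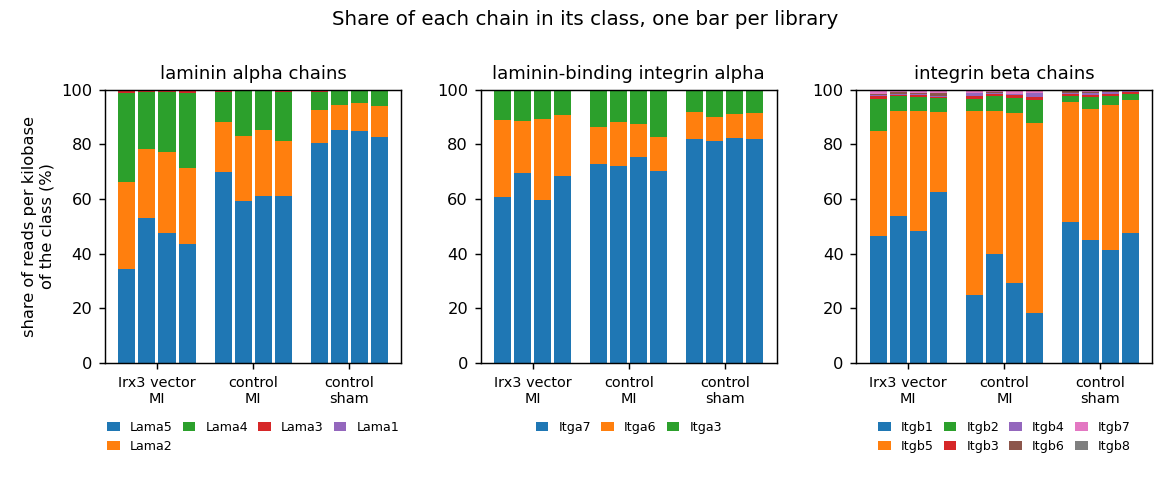
Share of reads per kilobase (y axis, percent) that each chain holds within the laminin alpha chains, the laminin-binding integrin alpha chains and the integrin beta chains, with 1 bar per library and the Irx3 MI, control MI and sham groups from left to right. Lama5 and Itga7 have their largest shares in sham, and Itgb5 has its largest share in control MI. The shares are not GC-corrected.

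The laminin-binding integrins pair with the beta1 chain, and alpha6 also with beta4. Itga7, the main cardiomyocyte laminin receptor chain, had 206, 294, 202 and 309 CPM in Irx3 MI, 280.1, 228, 282 and 249.8 in control MI and 362, 428, 426 and 366 in sham. Both infarcted groups lay below all sham libraries and overlapped each other. Itga7 had a log2 fold change of -0.61 (SE 0.17, adjusted p = 0.00846) with infarction and -0.04 (SE 0.16, adjusted p = 0.857) with Irx3 vector. GC-corrected, the Irx3 value became 0.57 (adjusted p = 0.0132), so its call rests on that correction. Against sham, Irx3 MI was called lower, at -0.65, but GC-corrected it stood at -0.064 (adjusted p = 0.736) and was not called. The summed level of 7 cardiomyocyte markers, none at 0, was 25507 to 47289 CPM in Irx3 MI, 23532 to 52607 CPM in control MI and 79020.5 to 92781 CPM in sham. Of the 7 markers 5 fell with infarction, and with Irx3 vector 1 was called higher and 1 lower. Their part in the Itga7 results was not tested.

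Itga6, a laminin receptor chain of endothelium and epithelium, was the member with the smallest p with Irx3 vector. Itga6 had 105, 90.98, 112 and 112 CPM in Irx3 MI, 58.03, 56.8, 49.6 and 49.8 in control MI and 48.4, 51.9, 50.03 and 47.3 in sham. The 4 Irx3 MI libraries stood above the other 8, which overlapped. Itga6 had a log2 fold change of 0.97 (SE 0.10, adjusted p = 3.41e-05) with Irx3 vector, GC-corrected 0.97 (adjusted p = 5.60e-05), and 0.12 (SE 0.10, adjusted p = 0.375) with infarction. Against sham, Irx3 MI was higher by 1.09 (SE 0.11, adjusted p = 4.29e-06). Itga3, the third chain of this class, had 25.9 to 33.8 CPM in Irx3 MI, 26.7 to 43.5 in control MI and 25.7 to 37.1 in sham. It stood at -0.27 (SE 0.16, adjusted p = 0.178) with Irx3 vector and 0.19 (SE 0.16, adjusted p = 0.341) with infarction, and the GC-corrected Irx3 value, 0.36 (adjusted p = 0.0223), had the opposite sign and was called. Without control MI replicate 2 the uncorrected value was -0.39 (adjusted p = 0.0459) and called lower. Per kilobase, Itga7 held 64.5% ± 5.03 of the 3 chains' reads in Irx3 MI, 72.6% ± 2.22 in control MI and 81.8% ± 0.481 in sham. Itga6 held 24.8% ± 4.81 in Irx3 MI, 13.5% ± 1.85 in control MI and 9.20% ± 0.530 in sham.

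The collagen-binding chains are alpha1, alpha2, alpha10 and alpha11. Itga11, the fibrillar collagen receptor chain of activated fibroblasts, had 59.4, 23.1, 41.9 and 10.7 CPM in Irx3 MI, 70.8, 51.7, 67.98 and 127 in control MI and 5.13, 5.65, 2.93 and 4.10 in sham. All infarcted libraries exceeded all sham libraries, and the infarcted groups overlapped, with the highest value in control MI replicate 4 and the lowest infarcted value in Irx3 MI replicate 4. Itga11 had a log2 fold change of 4.15 (SE 0.48, adjusted p = 4.57e-05) with infarction and -1.23 (SE 0.42, adjusted p = 0.0257) with Irx3 vector. The second became -0.67 (adjusted p = 0.249) GC-corrected, -0.89 (adjusted p = 0.123) without control MI replicate 4 and -1.06 (adjusted p = 0.0847) without Irx3 MI replicate 2, none of them called. Together 6 fibroblast markers, none at 0, had 2569 to 16406 CPM in Irx3 MI, 8367 to 25535 CPM in control MI and 549 to 668 CPM in sham. All 6 rose with infarction, and 1, Tcf21, fell with Irx3 vector. Their part in the Itga11 result was not tested.

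Itga10, a collagen receptor chain best known from cartilage, had 5.18, 3.02, 4.96 and 2.28 CPM in Irx3 MI, 9.41, 7.44, 7.40 and 11.3 in control MI and 3.09, 4.08, 4.98 and 2.50 in sham. Control MI libraries were above all others. Itga10 had a log2 fold change of 1.28 (SE 0.29, adjusted p = 0.00281) with infarction and -1.19 (SE 0.29, adjusted p = 0.00387) with Irx3 vector, GC-corrected -0.77 (adjusted p = 0.0539). Itga1, a collagen IV receptor chain of vessel and stromal cells, had 88.3, 98.3, 132 and 74.3 CPM in Irx3 MI, 60.3, 72.6, 54.7 and 52.03 in control MI and 55.4, 50.1, 45.5 and 51.7 in sham. Each Irx3 MI library exceeded every control MI library, the nearest being 74.3 and 72.6 CPM. Itga1 had a log2 fold change of 0.72 (SE 0.17, adjusted p = 0.00324) with Irx3 vector, GC-corrected 0.02 (adjusted p = 0.949), and 0.24 (SE 0.17, adjusted p = 0.247) with infarction. Itga2, the other collagen chain, had 0.912 to 3.60 CPM in Irx3 MI, 1.49 to 4.70 in control MI and 0.188 to 0.632 in sham and rose with infarction at 3.08 (SE 0.54, adjusted p = 0.000549).

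The RGD-binding chains recognise fibronectin, vitronectin and latent TGF-beta. Itga5, the classical fibronectin receptor chain, had 130.4, 120.1, 122 and 104 CPM in Irx3 MI, 203, 194, 201 and 248 in control MI and 82.1, 101, 87.02 and 101 in sham. The 3 groups did not overlap, with control MI highest and sham lowest. Itga5 had a log2 fold change of 1.19 (SE 0.13, adjusted p = 2.89e-05) with infarction and -0.83 (SE 0.12, adjusted p = 0.000209) with Irx3 vector, GC-corrected -0.22 (adjusted p = 0.155). Itgav, the alpha chain of vitronectin and TGF-beta activating receptors, had 88.3, 52.9, 67.5 and 44.9 CPM in Irx3 MI, 31.8, 32.9, 32.5 and 42.6 in control MI and 20.9, 18.2, 16.6 and 17.8 in sham. The 3 groups did not overlap, with Irx3 MI highest and sham lowest. Itgav had a log2 fold change of 0.86 (SE 0.19, adjusted p = 0.00208) with Irx3 vector, GC-corrected 0.23 (adjusted p = 0.445), and 0.93 (SE 0.19, adjusted p = 0.00141) with infarction.

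Itga2b, the platelet fibrinogen receptor chain, had 3.50, 3.40, 1.96 and 1.67 CPM in Irx3 MI, 5.35, 2.13, 3.42 and 13.5 in control MI and 3.09, 4.08, 3.75 and 2.50 in sham. All 3 groups overlapped, and control MI replicate 4 was highest. Its log2 fold change with Irx3 vector, -1.20 (SE 0.47, adjusted p = 0.0485), became -0.44 (adjusted p = 0.311) without that library and -0.50 (adjusted p = 0.399) GC-corrected. It was also not called without control MI replicate 1, at -1.26, or without Irx3 MI replicate 2, 3 or 4, at -1.33, -1.07 and -1.05. In the deposited table Itga2b and Itga10 have identical counts in sham replicates 1, 2 and 4, namely 44, 65 and 36, and differ in the other 9 libraries. With infarction Itga2b stood at 0.86 (SE 0.47, adjusted p = 0.143), and at 1.09 (adjusted p = 0.0445), which was called, without control MI replicate 2. The summed level of 6 platelet markers was 12.04 to 15.99 CPM in Irx3 MI, 10.9 to 17.5 CPM in control MI and 6.48 to 12.9 CPM in sham. Gp6, Gp9 and Treml1, receptors defining for platelets, were each at 0 in at least 1 library, and Gp6 was at 0 in all sham libraries. The part of platelets in the Itga2b result was not tested. Itga8, an RGD chain of mesenchymal cells, had 3.65 to 8.29 CPM in Irx3 MI, 4.89 to 8.27 in control MI and 2.11 to 4.37 in sham. It rose with infarction at 0.88 (SE 0.30, adjusted p = 0.0257), which was lost without sham replicate 1 or 4 and without control MI replicate 3 or 4, at 0.70, 0.88, 0.81 and 0.67.

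Alpha4 and alpha9 bind VCAM1, fibronectin and tenascin. Itga4, found on leukocytes, had 19.5, 7.90, 16.7 and 11.02 CPM in Irx3 MI, 5.45, 7.20, 7.52 and 9.87 in control MI and 1.47, 1.76, 0.819 and 2.36 in sham. Sham libraries were the lowest, and the infarcted groups overlapped. Itga4 had a log2 fold change of 2.22 (SE 0.34, adjusted p = 0.000252) with infarction and 0.88 (SE 0.31, adjusted p = 0.0298) with Irx3 vector, and GC-corrected the second became -0.05 (adjusted p = 0.921). It was not called without Irx3 MI replicate 1 or 3 (0.66 and 0.78) or without control MI replicate 1, 2 or 3 (0.75, 0.86 and 0.88). Itga9, a chain of muscle and lymphatic cells, had 144, 145, 115 and 140.0 CPM in Irx3 MI, 167, 165, 194 and 159 in control MI and 113, 108, 110.2 and 104 in sham. The 3 groups did not overlap. Itga9 had a log2 fold change of 0.65 (SE 0.11, adjusted p = 0.000481) with infarction and -0.33 (SE 0.11, adjusted p = 0.025) with Irx3 vector, the second GC-corrected -0.10 (adjusted p = 0.468), -0.26 without control MI replicate 3 and -0.25 without Irx3 MI replicate 3, none of these called.

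Of the 5 leukocyte integrin alpha chains 4 rose with infarction, beside 26.3% of all genes tested, and Itgad was not called. Itgal, the alpha chain of LFA-1, had 21.3, 10.4, 11.7 and 14.3 CPM in Irx3 MI, 7.66, 9.33, 7.91 and 18.9 in control MI and 1.47, 2.01, 2.05 and 2.43 in sham, and its log2 fold change with infarction was 2.45 (SE 0.34, adjusted p = 0.000118). Itgax, the CD11c chain of dendritic cells and macrophages, had 10.03 to 52.96 CPM in Irx3 MI, 6.40 to 18.8 in control MI and 0.614 to 1.82 in sham, with a rise of 3.29 (SE 0.59, adjusted p = 0.000653). Itgam, the CD11b chain of myeloid cells, rose by 2.15 (SE 0.40, adjusted p = 0.00086) and Itgae, the CD103 chain, by 2.78 (SE 0.64, adjusted p = 0.00317). All infarcted libraries of these 4 genes exceeded all sham libraries. Itgad, a related chain of macrophages, had 0.239 to 0.654 CPM in Irx3 MI, 0.0517 to 0.549 in control MI and 0.341 to 1.33 in sham and was not called, at -1.41 (SE 0.62, adjusted p = 0.0743), but was called lower without control MI replicate 2, at -1.96 (adjusted p = 0.029).

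With Irx3 vector none of the 5 leukocyte alpha chains was called over all 8 infarcted libraries. Itga4, also found on leukocytes but not among these 5, was called higher, at 0.88, and was not called GC-corrected. The log2 fold changes were 1.02 (SE 0.49, adjusted p = 0.1) for Itgax, 0.40 (SE 0.30, adjusted p = 0.288) for Itgal, 0.41 (SE 0.36, adjusted p = 0.373) for Itgam, -0.92 (SE 0.56, adjusted p = 0.189) for Itgae and 0.59 (SE 0.64, adjusted p = 0.468) for Itgad. When replicate 4 of both infarcted groups was left out, Itgax, Itgal and Itgam were called higher, at 1.62, 0.80 and 0.97, and they were called again with the GC correction added. Itgal was also called higher without control MI replicate 4 alone, at 0.81 (adjusted p = 0.0156). Together 5 leukocyte markers, none at 0, had 188 to 377 CPM in Irx3 MI, 258 to 639 CPM in control MI and 50.7 to 90.4 CPM in sham. All 5 rose with infarction, and with Irx3 vector 1 was called higher and 2 lower. All 5 T cell markers rose with infarction as well, and Cd3d was at 0 in all sham libraries. Together 6 macrophage markers had 716 to 1379 CPM in Irx3 MI, 957 to 2267 CPM in control MI and 324 to 391 CPM in sham. All 6 rose with infarction, and with Irx3 vector 0 were called higher and 2 lower. Their part in the results of the leukocyte chains was not tested.

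Integrin beta chains decide which alpha chains can be displayed. All 8 tested were called with infarction, 7 higher and 1 lower, beside 48.7% of all genes tested called in either direction. Itgb1, the partner of most alpha chains, had 573, 522, 570.3 and 523 CPM in Irx3 MI, 351, 438, 440.3 and 399.7 in control MI and 316, 299, 255 and 307 in sham. The 3 groups did not overlap, with Irx3 MI highest. Itgb1 had a log2 fold change of 0.47 (SE 0.13, adjusted p = 0.0111) with infarction, 0.37 (adjusted p = 0.0615) without control MI replicate 3, and 0.43 (SE 0.13, adjusted p = 0.0178) with Irx3 vector, 0.36 (adjusted p = 0.0607) without control MI replicate 1. GC-corrected, the Irx3 value was -0.03 (adjusted p = 0.889). Against sham, Irx3 MI was higher by 0.89 (SE 0.13, adjusted p = 9.59e-05), GC-corrected 0.51 (adjusted p = 0.00252).

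Itgb5, a partner of alphav that binds vitronectin and latent TGF-beta, had 414, 323, 454 and 212 CPM in Irx3 MI, 823, 501, 820.2 and 1321 in control MI and 233, 276, 285 and 273 in sham. Control MI libraries were above all Irx3 MI and all sham libraries, and Irx3 MI libraries overlapped sham. Itgb5 had a log2 fold change of 1.70 (SE 0.28, adjusted p = 0.000403) with infarction and -1.30 (SE 0.28, adjusted p = 0.00205) with Irx3 vector, GC-corrected -0.67 (adjusted p = 0.0607). Against sham, Irx3 MI stood at 0.40 and was not called, but was called higher GC-corrected, at 0.97 (adjusted p = 0.00565). It was also called higher without replicate 4 of both infarcted groups, at 0.57 (adjusted p = 0.0133). Per kilobase Itgb5 held 37.5% ± 6.14 of integrin beta reads in Irx3 MI, 62.9% ± 7.62 in control MI and 48.3% ± 3.82 in sham. Itgb1 held 52.7% ± 7.30 in Irx3 MI, 28.05% ± 9.01 in control MI and 46.4% ± 4.30 in sham. The leading beta chain was Itgb1 in each Irx3 MI library and Itgb5 in each control MI library, while the sham means of both differed by less than their SDs. These shares come from counts without the GC correction, and GC-corrected neither Itgb1 nor Itgb5 was called with Irx3 vector.

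Itgb6, the alphav partner whose promoter is printed above, had the largest fold change with Irx3 vector. Itgb6 had 7.26, 10.6, 4.36 and 16.1 CPM in Irx3 MI, 1.49, 1.34, 1.02 and 0.465 in control MI and 7.58, 6.66, 3.75 and 2.99 in sham. The control MI libraries lay below all others, and Irx3 MI overlapped sham. Itgb6 had a log2 fold change of 3.14 (SE 0.46, adjusted p = 0.000187) with Irx3 vector, GC-corrected 2.60 (adjusted p = 0.00156), and -2.28 (SE 0.46, adjusted p = 0.00141) with infarction. Against sham, Irx3 MI stood at 0.86 (SE 0.41, adjusted p = 0.0831) and was not called, but was called higher without Irx3 MI replicate 3, at 1.05 (adjusted p = 0.0331). Itgb4, the alpha6 partner of epithelial hemidesmosomes, rose with infarction and fell with Irx3 vector. Itgb4 had 11.3, 6.70, 9.64 and 2.74 CPM in Irx3 MI, 26.3, 10.1, 12.6 and 45.5 in control MI and 5.76, 5.78, 7.92 and 4.87 in sham. Control MI exceeded sham in every library and overlapped Irx3 MI, with control MI replicate 4 highest. Itgb4 had a log2 fold change of 1.96 (SE 0.47, adjusted p = 0.00421) with infarction and -1.63 (SE 0.46, adjusted p = 0.0106) with Irx3 vector, -1.08 (adjusted p = 0.0471) without that library and GC-corrected -0.87 (adjusted p = 0.133).

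Epithelial markers were read beside Itgb6, Itgb4 and Lamb3. The summed level of 6 such markers was 20.2 to 32.9 CPM in Irx3 MI, 4.51 to 16.8 CPM in control MI and 0.281 to 0.879 CPM in sham. Most of it was Krt8 and Krt18, which averaged 7.92 and 16.1 CPM in Irx3 MI, 2.46 and 7.39 CPM in control MI and 0.132 and 0.319 CPM in sham. Both were called higher in Irx3 MI than in control MI and in control MI than in sham, and the other 4 markers were too low to be tested. Krt5 was at 0 in all control MI and sham libraries, and Epcam averaged 0.0528 CPM in Irx3 MI, 0.0844 CPM in control MI and 0.120 CPM in sham. The part of epithelial cells in these results was not tested.

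Itgb3, the beta chain of platelets and of activated stromal cells, had 19.8, 7.09, 10.7 and 5.55 CPM in Irx3 MI, 23.2, 14.1, 19.1 and 41.2 in control MI and 4.21, 9.11, 7.64 and 5.63 in sham. The infarcted groups overlapped, and control MI lay above sham. Itgb3 had a log2 fold change of 1.87 (SE 0.41, adjusted p = 0.00248) with infarction and -1.17 (SE 0.40, adjusted p = 0.0269) with Irx3 vector, GC-corrected -0.88 (adjusted p = 0.125). The second was not called without control MI replicate 4, at -0.78 (adjusted p = 0.114), or without Irx3 MI replicate 2, 3 or 4, at -0.99, -1.15 and -0.97. Itgb7, a lymphocyte homing chain, had 9.72, 5.12, 8.28 and 6.00 CPM in Irx3 MI, 9.31, 6.71, 14.01 and 18.7 in control MI and 1.40, 2.89, 1.84 and 0.556 in sham. Itgb8, which binds latent TGF-beta, had 15.2, 5.22, 8.77 and 4.48 CPM in Irx3 MI, 5.04, 3.66, 5.01 and 8.01 in control MI and 1.54, 1.26, 1.02 and 0.904 in sham. Infarcted libraries of both were above sham, with rises of 2.85 (SE 0.43, adjusted p = 0.000204) for Itgb7 and 2.19 (SE 0.40, adjusted p = 0.000721) for Itgb8. Itgb2, the beta chain of LFA-1 and Mac-1, had 32.8 to 107 CPM in Irx3 MI, 43.5 to 133 in control MI and 11.02 to 21.98 in sham and rose with infarction at 2.29 (SE 0.43, adjusted p = 0.000909). With Irx3 vector these 3 were not called, at -0.74 (SE 0.38, adjusted p = 0.122), 0.63 (SE 0.35, adjusted p = 0.155) and -0.35 (SE 0.41, adjusted p = 0.497), while Itgb8 was called higher with replicate 4 of both infarcted groups left out, at 1.08, and stood at -0.40 (adjusted p = 0.49) GC-corrected. Itgb2l had 1 count in all.

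**Figure D4:**
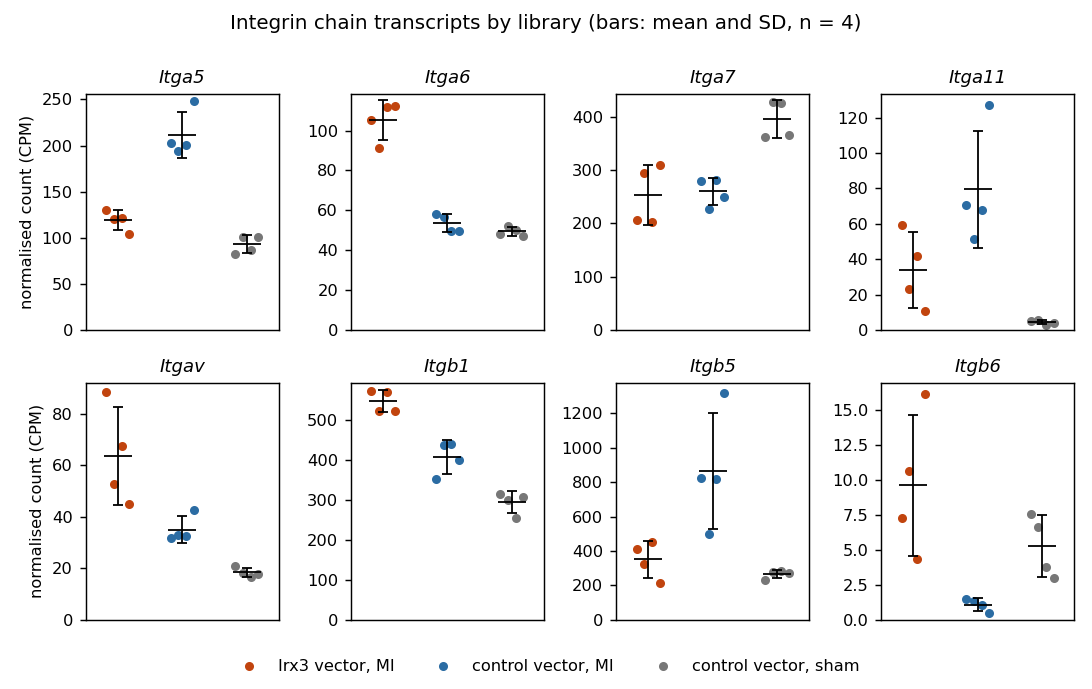
Normalised counts (y axis, CPM) of 8 integrin chain genes in each library, with Irx3 MI, control MI and sham from left to right and black bars for the mean and SD of 4 libraries. Itga6 is about as low in control MI as in sham and higher in every Irx3 MI library, Itga5, Itga11 and Itgb5 have their highest means in control MI, and Itgb6 is lowest in control MI.

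Exons of 12 members overlap exons of another gene in GENCODE M21, on the same strand for Itga1, Itga10, Itgad and Itgam. The longest overlaps were 3450 bases for Itgam, 1739 for Itga10 and 1124 for Itga4, the last with Cerkl on the other strand. The strand setting of the counting is not given in the sources used here, so reads of pairs on opposite strands cannot be told apart. In overlaps on the same strand no such setting could separate the reads.

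Partners of the members in the matrix and in the cell were read from 5 lists, and the values of named genes are log2 fold changes. Over all genes tested 26.3% rose and 22.4% fell with infarction, and 25.2% rose and 24.1% fell with Irx3 vector, or 14.3% and 13.1% GC-corrected. Of 25 basement membrane partners 21 rose and 2 fell with infarction, with a median log2 fold change of 1.45 beside 0.01 over all genes tested. Col15a1, a basement membrane collagen, rose by 3.05, Col4a5, a collagen IV chain, by 1.35, and Frem1, a Fraser complex protein, by 3.31. Frem2 fell at -1.23 and the matricellular Tinagl1 at -0.49. With Irx3 vector 1 rose and 14 fell, with a median of -0.80 beside 0.00, and GC-corrected 2 rose and 7 fell. Tinagl1 fell at -2.06, GC-corrected -1.41, and Nid2, which bridges laminin and collagen IV, at -1.22, GC-corrected -0.74. Egfl7, an endothelial matrix protein, fell at -0.69, GC-corrected -0.09 and not called. Frem2 rose at 1.26, GC-corrected 1.49.

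Of 25 integrin ligands of the RGD and fibrillar kind 22 rose with infarction, with a median of 2.54. None fell in edgeR, at adjusted or unadjusted p, or in DESeq2. Postn, which binds alphav integrins, rose by 5.88, Svep1, an alpha9 ligand, by 3.36 and Thbs4 by 6.43. With Irx3 vector 8 fell, with a median of -0.73. Over all libraries none rose in edgeR or DESeq2, and 1 did at an unadjusted p under 0.05. Without Irx3 MI replicate 4 the count of rises was 1, and GC-corrected without both replicates 4 it was 2. GC-corrected over all libraries 0 rose and 6 fell. The count of falls was 14 without Irx3 MI replicate 1, 5 without Irx3 MI replicate 2 and 4 without Irx3 MI replicate 4. Ccn2, a matricellular ligand of alphav integrins, fell at -2.30, GC-corrected -2.29. Its relative Ccn1 fell at -1.28, GC-corrected -0.95, and the latent TGF-beta carrier Ltbp1 at -0.84, GC-corrected -0.52.

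Of 37 adhesion adaptors, the proteins that tie integrin tails to actin, 17 rose and 6 fell with infarction, with a median of 0.22. Nedd9 rose by 1.21, Apbb1ip by 2.42 and Rap1b by 0.98, while the muscle talin Tln2 fell at -0.56, the kindlin Fermt2 at -0.66 and Lims1 at -0.49. With Irx3 vector 3 rose and 19 fell, with a median of -0.56. Rap1a, a small GTPase that activates integrins, rose at 1.82, GC-corrected 0.68. Rap1b rose at 0.90 and Lims1 at 0.72, but GC-corrected neither was called, at -0.16 and -0.22. Lims2 fell at -1.54, GC-corrected -0.95, the tensin Tns2 at -1.26, GC-corrected -0.61, and Tln2 at -0.72, GC-corrected -0.37. GC-corrected 1 adaptor rose and 15 fell.

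Of 25 genes of the dystrophin glycoprotein complex, the other laminin receptor of muscle, 3 rose and 12 fell with infarction, with a median of -0.44. Sgce rose by 1.40, Sntb2 by 1.58 and Sntb1 by 0.58, while the sarcoglycan Sgca fell at -1.33. With Irx3 vector 6 rose and 8 fell, with a median of -0.14, and GC-corrected 3 rose and 5 fell, so that these genes were called about as often as the shares over all genes given above. Sntb1 rose at 1.42, GC-corrected 1.04, and dystrophin itself, Dmd, at 1.07, GC-corrected 0.25 and not called. Pomgnt2 fell at -0.66, GC-corrected -0.03 and not called.

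Of 12 tested counter-receptors of leukocyte integrins and selectins 7 rose and 2 fell with infarction, with a median of 1.44. Vcam1, the ligand of alpha4 integrins, rose by 2.90, Selplg by 2.95 and Thy1 by 1.36, while the endothelial junction genes Esam and Jam2 fell at -0.69 and -0.35. Without sham replicate 1, 3 or 4 the count of falls was 1. With Irx3 vector 2 fell, with a median of -0.23. None rose in edgeR or DESeq2, although 3 did at an unadjusted p under 0.05 and 1 or 2 did without control MI replicate 2 or 4 or Irx3 MI replicate 1, 2 or 3. Esam fell at -0.86, GC-corrected -0.47, and Selplg at -0.91, GC-corrected -0.83 and not called. The count of falls was 5 without control MI replicate 2 and 1 without control MI replicate 4 or Irx3 MI replicate 2 or 4.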

How the data were processed

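Polyadenylated RNA of mouse left ventricle was sequenced in 12 libraries. The authors deposited a table of unnormalised read counts by gene, with reads trimmed by fastp and build GRCm39 (mm39) per the submitters' processing notes. The aligner, counting tool, annotation release and strand setting were not given in the sources used here. Members and gene lists were chosen with earlier results of these data known.

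All 3 groups were fitted together in edgeR 4.0.16 (R 4.3.3), with genes kept by filterByExpr, TMM factors and the robust quasi-likelihood test on 9 residual degrees of freedom. P-values were Benjamini-Hochberg adjusted over 15742 genes with a threshold of 0.05, and an SE is the size of the log2 fold change divided by the square root of F. The table holds no gene lengths although the plan assumed them, so exon lengths were matched by symbol from GENCODE M21 on GRCm38, an older build. GC content came from the longest transcript there, for 15186 genes and all 36 members. The GC correction fitted a natural spline (6 degrees of freedom, genes of mean log2 CPM of at least 2, 3 rounds, residual limit 2.5 MAD) in each library and used it as an offset. The spline was fitted to each gene's log2 CPM less its mean over the libraries. Values in every library are given for members called with Irx3 vector, the 3 with the smallest p per class and direction with infarction, and 6 chains of muscle laminin and its receptor. Of each list up to 3 called genes per direction with the smallest p are named. A few genes that these rules select are counted but not reported here.

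Each pair of libraries of a group differed by more than counting noise (chi-square per degree of freedom 7.31 to 270.3), so none was counted as a repeat. Alternatives were RLE factors, DESeq2 1.42.0, other count filters, only the groups compared, a replicate block, removal of mitochondrial genes, and leaving out each library or replicate 4 of both infarcted groups. The last with the GC correction was added after seeing the data. The scripts were tested on simulated data.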

Additional observations from a re-analysis of the deposited data

Results flagged for a closer look

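In 108 sets of 4 libraries, 1 per tested member and group, 2 held a library far from the others by Dixon's ratio on log2 CPM, with a limit of 0.829. Chance flags about 1 set in 20. Sets not flagged on this scale can still hold a library far off in CPM. For Lamc3 control MI replicate 4 had 4.86 CPM, beside 0.683 to 1.03 in the other control MI libraries. Itga9 was lowest in Irx3 MI replicate 3, at 115 CPM, while the other Irx3 MI libraries had 140.0 to 145 CPM. Itgav was highest in control MI replicate 4, at 42.6 CPM, while the other control MI libraries had 31.8 to 32.9 CPM.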

How the results depend on the processing

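Of the calls with infarction 23 of 28 were made under each alternative, and of those with Irx3 vector 3 of 19. Left-out libraries gave 20 to 25 higher and 4 to 6 lower members with infarction, and 4 to 7 higher and 10 to 13 lower with Irx3 vector. For the lists they gave 1 to 2 leukocyte counter-receptors lower with infarction, and with Irx3 vector 1 to 2 basement membrane partners higher, 0 to 1 ligands higher and 4 to 14 lower, and 0 to 2 counter-receptors higher and 1 to 5 lower. The replicate numbers are not stated to pair the libraries. Same-numbered libraries correlated at -0.59 to 0.18 and matched their own number best in 0, 0 and 1 of 4 cases. Such correlations cannot exclude a shared batch. With the replicate block 22 members rose and 4 fell with infarction, 4 rose and 10 fell with Irx3 vector, and 15 rose and 4 fell against sham, while 7 dystrophin complex genes and 1 counter-receptor fell with infarction and 5 ligands and 1 counter-receptor with Irx3 vector. The number of members lower with Irx3 vector, 13, was 7 with no count filter, 8 with only the groups compared, 3 with the GC correction, 1 with GC correction and block, and 3 with replicate 4 of both infarcted groups removed and GC correction. The number higher, 6, was 3 with GC correction and block and 10 without both replicates 4. Against sham the number lower, 4, was 2 in each GC-corrected fit. Counter-receptors lower with infarction numbered 1 with no filter, only the groups compared, GC correction and block, and without both replicates 4 with or without GC correction. With Irx3 vector they numbered 5 with RLE factors, 6 in DESeq2, and 1 with only the groups compared, GC correction and block, and without both replicates 4 with or without GC correction; 1 was higher with the CPM filter and 3 without both replicates 4. Ligands lower numbered 5 with only the groups compared, GC correction and block, and without both replicates 4 with or without GC correction, where 2 were higher with it. Basement membrane partners were 2 higher and 7 lower GC-corrected, 5 lower with the block added, 2 higher without both replicates 4, and 3 higher and 1 lower with GC correction too. Adaptors higher were 1 in each GC-corrected fit, with 8 lower with the block and 11 lower without both replicates 4. Dystrophin complex genes higher were 3 in each GC-corrected fit, with 5 lower GC-corrected and 4 with the block. Among values called in at least 1 of the fits compared, signs turned with Irx3 vector for Itgb1 (-0.027 GC-corrected and with block), Itga4 (-0.054, and -0.029 with block), Itga1 (-0.0012 with block), Itga7 (0.57, 0.56 with block, 0.37 without both replicates 4), Itga3 (0.36, and 0.38 without them) and Itga2b (0.28 without them, GC-corrected). Against sham they turned for Itga3 (0.51, 0.51 with block and 0.49 without them) and Lamb2 (0.021 without them, GC-corrected). Every value given in brackets for these turned signs is GC-corrected, also those with the block or without both replicates 4. Values called in neither fit also turned sign GC-corrected, those of Itgb8, Itgb2, Lama3 and Lamc3 with Irx3 vector and of Itga2b against sham. Lama5, called lower GC-corrected with Irx3 vector, was not called with the block added, at -0.61 (adjusted p = 0.0566). The GC-corrected calls of Lama2 and Itga3 were lost with the block as well, and that of Lama2 without both replicates 4. Without division by length, Lama2 held 36.1% in Irx3 MI, 27.9% in control MI and 14.6% in sham, Lama5 57.1% in control MI and 79.4% in sham, Lamb2 76.1%, 83.0% and 82.9% in Irx3 MI, control MI and sham, and Itga7 83.1% in sham. The cause of these changes was not tested. Low members such as Itgad, Lamc3 and Itgae rest on few counts.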
